A study of Homo sapiens with 24 samples.

Results

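The genes described here belong by symbol to the families of enzymes that add methyl groups to histone lysines or take them off. Some members, such as SETD3, SETD5 and SETD6, are known for other substrates or have debated activity on histones, and are counted all the same. They were chosen by symbol among the protein-coding genes of the platform annotation: every symbol that starts with KDM, KMT, SETD, NSD, EHMT, EZH, SUV39H or SMYD, and DOT1L, PHF2 and PHF8, with the array row of highest mean standing for each gene. This found 49 of 14884 named genes. NSDHL, an enzyme of sterol synthesis, carries the letters NSD without belonging to these families and is given apart, which leaves 48 enzyme genes. Of these, 46 passed the filter on dim genes, and KDM4E and SMYD1 were dim in every group. KMT2A, DOT1L, SETDB1, SETDB2, SETD1B, SETD4 and KMT2E are not analysed here, and KDM5D, on the Y chromosome, was counted but its level is not given.

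RNA was measured on 24 Affymetrix arrays in HL60, KG1a, MOLM14 and U937, which are 4 established human lines used as models of acute myeloid leukaemia. Each line was either left untreated (control) or given 10 mM metformin, a biguanide that inhibits complex I of the respiratory chain, for 24 h, with 3 arrays per group lettered A to C. By the labels, oxidative phosphorylation is high in KG1a and MOLM14 and low in HL60 and U937, and a second label moves the metformin-treated KG1a and MOLM14 arrays to the low state. The study set out to find a gene signature of high oxidative phosphorylation. No genetic change was made in any group, and each line stands for 1 patient's malignant cells kept in culture. Whether replicate arrays stem from separate cultures is not stated in the labels. The p-values therefore measure the spread between these arrays, which may be technical. RNA came from whole cultures, in which fewer cells of a kind and less RNA per cell cannot be told apart.

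Values are log2 normalized signals, differences are metformin minus control in log2 units with their standard error (SE), and a gene counts as called where limma's moderated test gave a Benjamini-Hochberg adjusted p under 0.05 over all 10641 genes past the filter. That filter kept a gene with at least 1 group mean at or over 4.02, the median of all values. The medians of the 24 arrays lay between 3.99 and 4.08. Several markers set the untreated lines apart: CD34, of stem and progenitor cells, was at 11.24 ± 0.05 (SD, n = 3) in KG1a against 3.53 to 3.61 in the other lines, FLT3, a receptor kinase, at 10.38 ± 0.08 in MOLM14 against 3.28 to 3.64, and MPO, of myeloid granules, at 12.48 ± 0.09 in HL60, 8.93 ± 0.03 in MOLM14 and 3.26 to 3.30 in KG1a and U937. LYZ, of monocytes and granulocytes, was at 9.43 ± 0.18 in U937, 9.88 ± 0.06 in MOLM14, 7.26 ± 0.12 in HL60 and 3.46 ± 0.05 in KG1a. AZU1, of myeloid granules as well, did not follow MPO. It was at 6.97 ± 0.22 in HL60, 10.10 ± 0.07 in MOLM14, 8.70 ± 0.05 in U937 and 4.02 ± 0.18 in KG1a. MEIS1 was at 6.80 ± 0.06 in MOLM14 and 6.53 ± 0.15 in U937, against 3.39 in HL60 and 3.52 in KG1a. EPCAM, of epithelial cells, stayed between 3.87 and 4.04 in all 8 groups. ELANE, HOXA9 and CD33, and the markers of lymphoid, erythroid and stromal cells looked for, are not analysed here.

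Methylases take the methyl group from S-adenosylmethionine and place it on a given lysine: methylation of the histone H3 lysines H3K4 and H3K36 goes with active genes, and that of H3K9 and H3K27 with silent ones. Most demethylases carry a Jumonji domain and need iron, oxygen and 2-oxoglutarate, a metabolite of the citric acid cycle, whereas the KDM1 pair uses the cofactor FAD. In myeloid leukaemia these enzymes are known as frequent partners of fusion oncoproteins, as mutated genes and as drug targets, with EZH2 and KDM1A the best studied.

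KDM7A, the member with the largest response, and PHF2, its relative that did not pass the test, are shown by the 250 bases before their start sites, since both windows are of the same CpG-rich kind (RefSeq, GRCh38.p14, lower case, 5′ to 3′ along the gene). The KDM7A window is chr7:140176984-140177233 on the minus strand and the PHF2 window chr9:93576334-93576583 on the plus strand.
KDM7A: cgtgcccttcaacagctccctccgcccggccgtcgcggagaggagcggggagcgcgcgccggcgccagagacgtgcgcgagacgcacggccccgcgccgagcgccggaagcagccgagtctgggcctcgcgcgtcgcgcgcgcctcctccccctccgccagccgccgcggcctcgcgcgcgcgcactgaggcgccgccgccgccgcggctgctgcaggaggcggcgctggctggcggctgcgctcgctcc
PHF2: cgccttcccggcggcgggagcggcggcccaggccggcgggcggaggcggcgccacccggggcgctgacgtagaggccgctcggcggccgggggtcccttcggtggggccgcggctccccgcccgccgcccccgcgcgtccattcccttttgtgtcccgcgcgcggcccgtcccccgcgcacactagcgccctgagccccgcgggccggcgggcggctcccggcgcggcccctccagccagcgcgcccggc
The KDM7A window held 50 CpG dinucleotides at 81.6% G and C, and the PHF2 window 46 at 84.8%. Over all 27305 RefSeq windows of this length the median was 11 CpG at 58% G and C, and 0.432% of windows held at least as many as that of PHF2. The core of the element bound by ATF4 with C/EBP proteins, TGATGNAA, was searched on both strands and lay in 0 of 46 member windows against 3.19% of all windows. Of the E2F site forms, TTTGGCGC lay in 0 of the 46 against 0.553%, and TTTCCCGC in 2, KDM1B and NSD2, against 1.42%. These letters describe the windows only.

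Among the members the KDM7 demethylases stood furthest apart from each other under metformin. KDM7A, which removes methyl groups from H3K9 and H3K27, was at 6.49, 6.16 and 5.96 in the HL60 control arrays A to C and at 8.85, 8.61 and 8.73 with metformin. In MOLM14 it was at 6.92, 6.89 and 6.93 without and at 8.13, 8.06 and 8.05 with metformin, and in U937 at 6.14, 6.18 and 6.03 and at 7.08, 6.90 and 6.79. In KG1a the control arrays gave 3.58, 3.87 and 3.58 and the metformin arrays 3.64, 3.71 and 4.10. The groups did not overlap in HL60, MOLM14 or U937, and in KG1a they overlapped and both means lay under 4.02. The difference was 2.52 ± 0.12 (SE) in HL60, 1.17 ± 0.12 in MOLM14, 0.81 ± 0.12 in U937 and 0.14 ± 0.12 in KG1a, with a mean over the 4 lines of 1.16 ± 0.06. KDM7A was singled out with this rise known, so these values are a description. The counts of called members include KDM7A, and nothing is supported with its p-values. Without HL60 the mean over the other 3 lines was 0.71. By size of rise it ranked 4 of 10641 genes in HL60, 3 in MOLM14, 39 in U937 and 1413 in KG1a.

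PHF8, which acts on H3K9 as well and on the histone H4 lysine H4K20, gave 6.18, 6.29 and 6.04 in the HL60 controls and 6.36, 6.36 and 6.30 with metformin. In KG1a it gave 6.10, 6.08 and 6.03 against 6.11, 6.30 and 6.30, in MOLM14 6.43, 6.43 and 6.36 against 6.48, 6.49 and 6.47, and in U937 6.71, 6.88 and 6.54 against 7.0, 6.80 and 6.77. The groups overlapped in U937 alone, and the mean difference of 0.14 ± 0.04 (limma, adjusted p = 0.0176) was small in each line. The call was lost without the 3 arrays of HL60 and U937 that stand apart from their groups (0.08, adjusted p = 0.11), without HL60 and without KG1a (0.13 in both cases, adjusted p = 0.0838 and 0.0659). PHF2, an H3K9 demethylase, differed by 0.05 ± 0.05 (adjusted p = 0.513), and its arrays overlapped in all 4 lines. The KDM7A difference less the mean of those of PHF2 and PHF8 was 2.39 in HL60, 1.08 in MOLM14, 0.76 in U937 and 0.04 in KG1a.

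**Figure D1:**
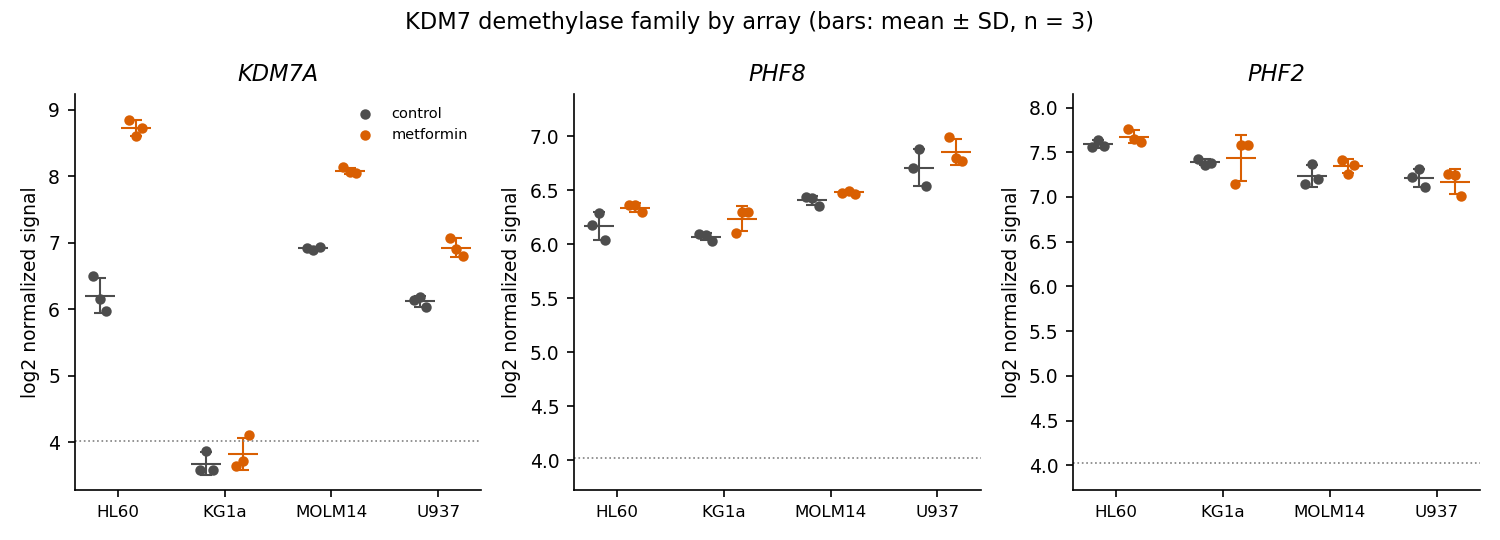
Log2 normalized signal (y axis) of KDM7A, PHF8 and PHF2 on each of the 24 arrays, by line (x axis) and treatment; horizontal marks and bars are the mean ± SD of 3 arrays, and the dotted line is the median of all values. KDM7A rises from 6.21 to above 8.6 in HL60 and stays under 4.2 in KG1a, while PHF8 and PHF2 move by at most 0.17 in any line.

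KDM7A-DT, a long RNA that starts 278 bases from KDM7A and is read the opposite way, differed by 0.19 ± 0.08 over the 4 lines (limma, adjusted p = 0.0548) and by 0.35 ± 0.15 in HL60 (adjusted p = 0.1). Neither value passed the test. Of all other genes past the filter, those whose 4 line differences lay closest to those of KDM7A, by the root mean square of the gaps, were CTH (0.36), an enzyme of cysteine synthesis, ULBP1 (0.38), a ligand of the receptor NKG2D, TRIB3 (0.44), a pseudokinase, DDIT3 (0.47), which encodes the factor CHOP, and VEGFA (0.49), a growth factor of blood vessels. CTH differed by 2.73 in HL60, -0.29 in KG1a, 1.26 in MOLM14 and 1.34 in U937.

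Averaged over the 4 lines, 19 of the 46 members were called, 13 higher and 6 lower with metformin. That is 28.3% of members higher, where 16.3% of all genes tested were higher, and 13% lower, where 16.1% of all genes were. Without HL60 12 members were called, 7 higher and 5 lower, and with each line taken as 1 value 2 were (EZH1 and SMYD3). The median difference of the members was 0.03 against -0.01 for all genes, and the median size, ignoring sign, 0.07 against 0.09. Apart from KDM7A, every called member moved by under 0.5. Of the 20 tested demethylases 5 rose and 1 fell, and of the 26 tested methylases 8 rose and 5 fell. The differences had 1 sign in all 4 lines for 19 members, 13 above and 6 below 0. The share of all genes with 1 sign was not counted, so this describes the members only. It held for 17 of the 19 called ones, but these were called on the mean of the same 4 differences, which favours 1 sign.

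**Figure D2:**
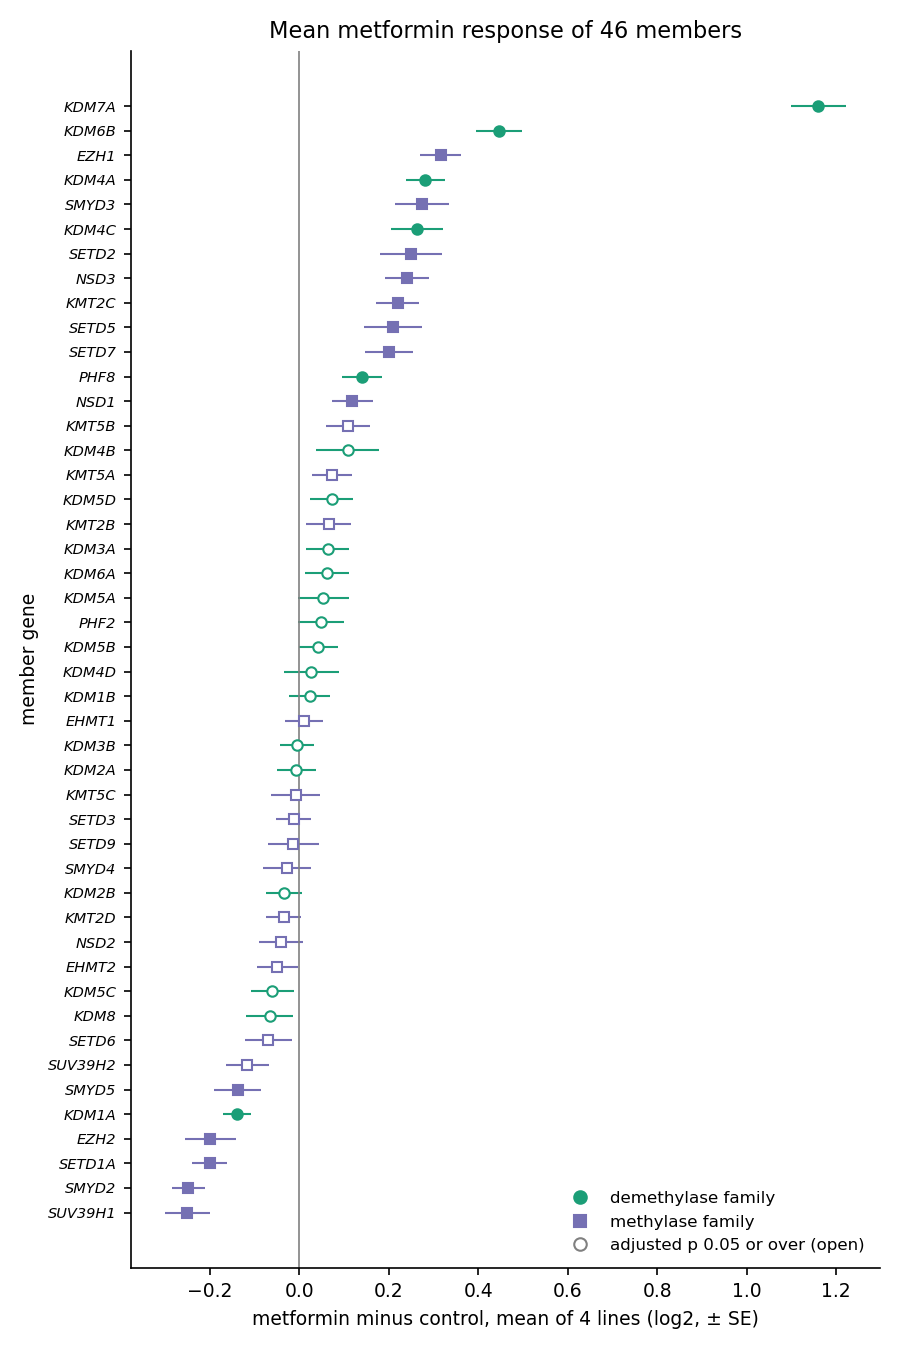
Metformin minus control, mean of the 4 lines (x axis, log2, bars ± SE), for the 46 members (y axis), with circles for demethylase and squares for methylase families, filled where the adjusted p is under 0.05. KDM7A lies at 1.16 and KDM6B at 0.45, and all other members lie between -0.25 and 0.32.

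Among the other demethylases, KDM6B and 2 of the 4 tested KDM4 enzymes rose in the mean of the lines, where 16.3% of all genes rose. KDM6B, which clears methylation from H3K27, was at 5.97, 5.80 and 5.68 in the HL60 controls and at 7.12, 6.83 and 6.98 with metformin. It was at 6.28, 6.38 and 6.08 against 6.72, 6.69 and 6.80 in MOLM14, at 6.46, 6.56 and 6.17 against 6.54, 6.35 and 6.53 in U937, and at 4.35, 4.39 and 4.27 against 4.35, 4.45 and 4.39 in KG1a. The groups were apart in HL60 and MOLM14 and overlapped in U937 and KG1a. KDM6B rose by 1.16 ± 0.10 in HL60 (limma, adjusted p = 9.12e-09) and by 0.49 ± 0.10 in MOLM14 (adjusted p = 0.00493), and over the 4 lines by 0.45 ± 0.05 (adjusted p = 4.3e-07). Without HL60 that mean was 0.21 (adjusted p = 0.0115), and with each line as 1 value its adjusted p was 0.131. KDM6A, its X-linked relative, differed by 0.06 ± 0.05 (adjusted p = 0.367).

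KDM4A and KDM4C act on H3K9 and H3K36. KDM4A gave 7.44, 7.29 and 7.12 in the HL60 controls and 7.90, 7.96 and 7.80 with metformin, and 7.12, 7.09 and 7.11 against 7.50, 7.30 and 7.39 in MOLM14. The U937 arrays gave 7.70, 7.71 and 7.77 against 7.77, 8.02 and 7.83, and the KG1a arrays 6.97, 6.80 and 6.78 against 6.95, 7.0 and 6.86. Its groups overlapped in KG1a and all but touched in U937, and it rose by 0.28 ± 0.04 over the 4 lines (limma, adjusted p = 2.49e-05) and by 0.60 ± 0.09 in HL60 (adjusted p = 1.61e-05). Without HL60 the mean was 0.17 (adjusted p = 0.0132).

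KDM4C rose by 0.26 ± 0.06 (limma, adjusted p = 0.00116), with 5.91, 5.80 and 5.59 in the HL60 controls against 6.31, 6.37 and 6.12, and 5.72, 5.84 and 5.69 in the U937 controls against 6.49, 5.89 and 6.14. Both of these lines were apart, and the KG1a difference was -0.05 ± 0.12. The U937 rise of 0.43 ± 0.12 (adjusted p = 0.0134) rested on array A of the metformin group: without it the difference was 0.27 (adjusted p = 0.128). Without HL60 the mean over the other lines was 0.18 (adjusted p = 0.0547). KDM4B and KDM4D differed by 0.11 ± 0.07 and 0.03 ± 0.06 and were not called.

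KDM1A, the H3K4 demethylase known as LSD1, fell by a small amount in the mean of the lines. In U937 it went from 10.17, 10.13 and 10.11 to 9.87, 9.88 and 9.92, in HL60 from 10.15, 10.06 and 9.99 to 9.96, 9.94 and 9.97, in KG1a from 9.80, 9.82 and 9.82 to 9.76, 9.72 and 9.73, and in MOLM14 from 9.63, 9.70 and 9.64 to 9.54, 9.57 and 9.49. Metformin arrays lay below the controls in all 4 lines. The mean difference was -0.14 ± 0.03 (limma, adjusted p = 0.00154), and -0.10 (adjusted p = 0.0559) without U937. KDM8, a Jumonji protein, fell in U937 by 0.36 on the log2 scale (adjusted p = 0.0176), a call lost without control array B (-0.27, adjusted p = 0.119) or metformin array A (-0.27, adjusted p = 0.121). The classes without a called member for the mean were the KDM2, KDM3 and KDM5 families, which act on H3K36, H3K9 and H3K4, the H4K20 methylases, KDM8, and SETD3, SETD6 and SETD9. They are grouped here for that reason, 15 members in all, of which KMT5B had an unadjusted p under 0.05 (limma).

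The 2 H3K27 methylases, the alternative catalytic subunits of Polycomb complex 2, moved in opposite directions. EZH1 gave 7.78, 7.73 and 7.58 in the HL60 controls and 8.08, 8.32 and 8.01 with metformin, and 7.54, 7.49 and 7.29 against 7.77, 7.73 and 7.71 in KG1a. In MOLM14 it gave 6.98, 7.07 and 7.0 against 7.24, 7.21 and 7.21, and in U937 7.43, 7.42 and 7.18 against 7.65, 7.58 and 7.80. Metformin arrays were above the controls in all 4 lines, and the mean rise was 0.32 ± 0.05 (limma, adjusted p = 1.16e-05). By line it was called in HL60 (0.44 ± 0.09, adjusted p = 0.00106) and in U937 (0.33 ± 0.09, adjusted p = 0.0141). The U937 call was lost without control array C (0.25, adjusted p = 0.0841) or metformin array C (0.27, adjusted p = 0.0791).

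EZH2, the form of dividing cells, gave 7.74, 7.50 and 7.34 in the KG1a controls against 7.25, 7.18 and 7.16, and 8.26, 8.54 and 8.47 in the MOLM14 controls against 8.04, 8.24 and 8.0. In HL60 it gave 9.40, 9.38 and 9.20 against 9.33, 9.12 and 9.25, and in U937 8.60, 8.54 and 8.52 against 8.73, 8.55 and 8.25. The groups were apart in KG1a and MOLM14 and overlapped in HL60 and U937. EZH2 fell by 0.20 on the log2 scale in the mean (SE 0.06, limma, adjusted p = 0.00827) and was called in no single line. Without KG1a the mean was -0.15 (adjusted p = 0.0718) and without MOLM14 -0.16 (adjusted p = 0.0824).

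**Figure D3:**
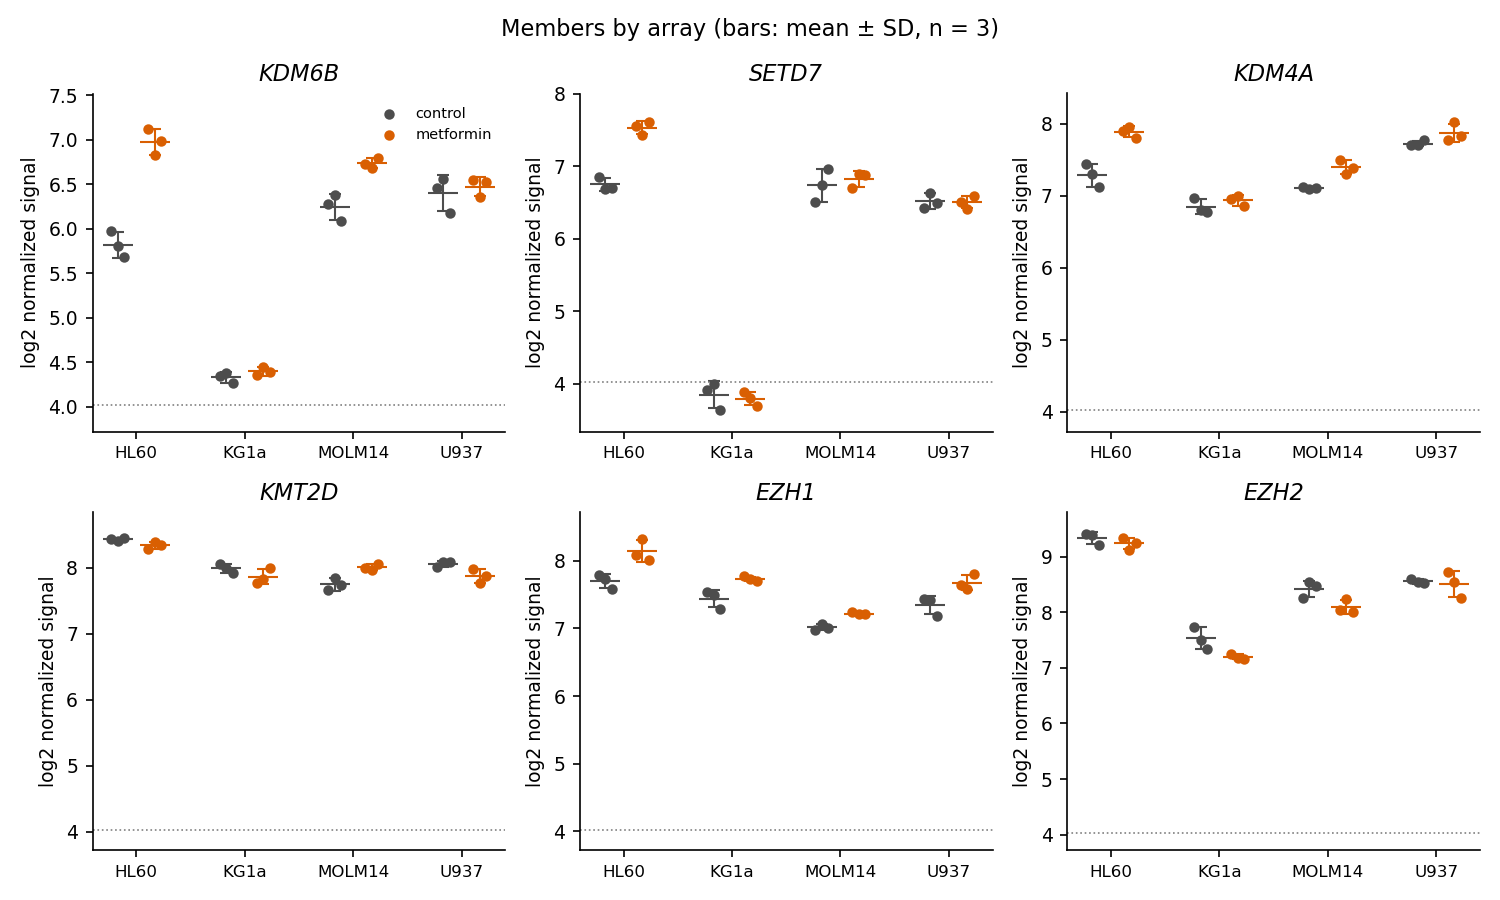
Log2 normalized signal (y axis) of KDM6B, SETD7, KDM4A, KMT2D, EZH1 and EZH2 on each array, by line (x axis) and treatment; horizontal marks and bars are the mean ± SD of 3 arrays, and the dotted line is the median of all values. KDM6B and SETD7 move most in HL60 (1.16 and 0.78), the KMT2D metformin arrays lie above the controls in MOLM14 alone, and EZH1 is higher in all 4 lines.

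Among the 4 tested H3K9 methylases, which mark heterochromatin, SUV39H1 fell. It went from 7.46, 7.66 and 7.52 to 6.97, 7.22 and 7.23 in U937, from 7.02, 6.77 and 6.84 to 6.65, 6.65 and 6.52 in HL60, from 6.88, 6.77 and 6.81 to 6.51, 6.56 and 6.82 in KG1a and from 6.46, 6.65 and 6.73 to 6.42, 6.41 and 6.62 in MOLM14. The groups were apart in U937 and HL60. The mean difference was -0.25 ± 0.05 (limma, adjusted p = 0.000444). In U937 it was -0.41 ± 0.10 (adjusted p = 0.00689), and -0.32 without metformin array A (adjusted p = 0.0565). SUV39H2 (-0.12 ± 0.05, adjusted p = 0.0648), EHMT2 (-0.05 ± 0.05, adjusted p = 0.447) and EHMT1 (0.01 ± 0.04) were not called.

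Of the 4 tested H3K36 methylases 3 rose in the mean of the lines, NSD1 only just past the threshold, where 16.3% of all genes rose. SETD2, which places the third methyl group on H3K36 along transcribed genes, rose by 0.25 ± 0.07 (limma, adjusted p = 0.00712), and its arrays were separate in HL60 alone. Without HL60 its mean was 0.22 (adjusted p = 0.0581), and without the 3 arrays that stand apart 0.15 (adjusted p = 0.0469). NSD3 rose by 0.24 ± 0.05 (adjusted p = 0.000601), from 7.71, 7.67 and 7.61 to 8.04, 8.14 and 7.92 in HL60 and from 8.59, 8.73 and 8.71 to 8.91, 8.90 and 8.91 in MOLM14, both without overlap. A second array row of NSD3 disagreed in HL60, where its mean went from 5.19 to 5.05, and with both rows averaged the HL60 difference was 0.12 (adjusted p = 0.368) in place of 0.37 (adjusted p = 0.0079) and the mean of the lines 0.15 (adjusted p = 0.0128). NSD1 rose by 0.12 ± 0.05 (adjusted p = 0.0496), a call lost in 25 of 38 alternative settings. NSD2, known as the target of a myeloma translocation, differed by -0.04 ± 0.05 (adjusted p = 0.572).

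The 5 tested H3K4 methylases split. KMT2C, of the enhancer-bound complexes, rose by 0.22 ± 0.05 (limma, adjusted p = 0.000966), with 8.76, 8.86 and 8.91 against 9.18, 9.10 and 9.04 in MOLM14, 9.30, 9.09 and 9.12 against 9.54, 9.31 and 9.37 in KG1a, 8.78, 8.78 and 8.64 against 9.25, 8.81 and 8.90 in U937 and 9.22, 9.17 and 9.18 against 9.27, 9.36 and 9.29 in HL60. The metformin arrays were above the controls in every line, although no single line was called. SETD7, which places a single methyl group on H3K4 and on non-histone proteins, rose by 0.20 ± 0.05 in the mean (adjusted p = 0.00524), and without HL60 that mean was 0.01 (adjusted p = 0.955). SETD1A, of the promoter-bound complexes, fell: the HL60 arrays went from 6.92, 6.82 and 6.71 to 6.57, 6.51 and 6.60 and the U937 arrays from 7.03, 7.02 and 6.82 to 6.58, 6.65 and 6.66. Both were without overlap, and the mean difference was -0.20 ± 0.04 (adjusted p = 0.000319). KMT2B (0.07 ± 0.05) and KMT2D (-0.04 ± 0.04, adjusted p = 0.538) were not called. SETD5, whose own activity on histones is debated, rose by 0.21 ± 0.06 (adjusted p = 0.014). That call was lost without HL60 (0.18, adjusted p = 0.0791), without MOLM14 (0.21, adjusted p = 0.057) or without the 3 arrays that stand apart (0.12, adjusted p = 0.0827).

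Of the 4 tested SMYD enzymes, which methylate many proteins besides histones, SMYD3 rose and SMYD2 and SMYD5 fell. Among all genes 16.3% rose and 16.1% fell in the mean of the lines. SMYD2 went from 8.27, 8.23 and 8.23 to 8.10, 7.90 and 7.93 in HL60, from 7.90, 7.74 and 7.85 to 7.39, 7.52 and 7.57 in KG1a, from 8.23, 8.26 and 8.25 to 8.13, 8.23 and 8.18 in MOLM14 and from 8.14, 8.19 and 8.18 to 7.88, 7.87 and 7.80 in U937. Metformin arrays were below the controls in every line, and the mean difference was -0.25 ± 0.04 (limma, adjusted p = 1.21e-05). SMYD3 rose by 0.27 ± 0.06 (adjusted p = 0.00113), with the 2 groups apart in HL60 (5.91, 5.87 and 5.91 against 6.25, 6.36 and 6.10) and in MOLM14 (7.28, 7.55 and 7.57 against 7.68, 7.75 and 7.87). SMYD5 differed by -0.14 ± 0.05 (adjusted p = 0.0482), a call lost in 24 of 38 alternative settings.

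By line, HL60 held the most called members. There 9 of 46 were higher (19.6%, against 15.5% of all genes) and 2 lower (4.35%, against 9.56%). Besides those given above, SETD7 rose from 6.86, 6.69 and 6.70 to 7.56, 7.43 and 7.60, by 0.78 ± 0.11 (limma, adjusted p = 7.13e-06), with no overlap. After quantile normalization of the arrays the HL60 counts were 7 higher and 8 lower, and those of all genes 1281 and 1538 in place of 1649 and 1017. Some of the smaller HL60 calls depended on single arrays. SMYD3 (0.34) lost its call on leaving out any control array or metformin array A or B (adjusted p = 0.067 to 0.158). KMT5B (0.29), an H4K20 methylase, lost it on leaving out control array A or C or metformin array B or C (adjusted p = 0.0706 to 0.128). SETD1A (-0.25) lost its call without control array A (-0.20, adjusted p = 0.0857) or metformin array B (-0.23, adjusted p = 0.0753). Quantile normalization also removed the calls of SMYD3 (0.20, adjusted p = 0.195) and KMT5B (0.20, adjusted p = 0.11). Centring the arrays on their medians removed that of SETD1A (-0.22, adjusted p = 0.0788). SMYD2 (-0.27) kept its HL60 call in all 33 alternative settings.

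U937 had 3 members higher (6.52%, against 7.46% of all genes), which were KDM7A, KDM4C and EZH1, and 5 lower (10.9%, against 9.74%), which were SUV39H1, KDM8, SETD1A, SMYD2 and KDM1A. After quantile normalization these were 6 and 7, and without metformin array A 2 and 3. SETD1A fell by 0.33 on the log2 scale (limma, adjusted p = 0.00543) and SMYD2 by 0.32 (adjusted p = 0.00377). MOLM14 had KDM7A and KDM6B higher (4.35% of members, against 2.48% of all genes) and none lower by limma (against 2.57% of all genes), with 1 member lower at an unadjusted p under 0.05. Without metformin array A or B of U937, which changes the pooled spread, 4 members were higher in MOLM14. In KG1a the only call was SMYD2, lower by 0.34 on the log2 scale (adjusted p = 0.0142, 2.17% of members, against 1.67% of all genes). That call was lost without control array A (-0.30, adjusted p = 0.0724), control array C (-0.33, adjusted p = 0.0638) or metformin array A (-0.28, adjusted p = 0.0865). Limma called 0 members higher in KG1a, where 0.818% of all genes were, and 3 were higher at an unadjusted p under 0.05.

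**Figure D4:**
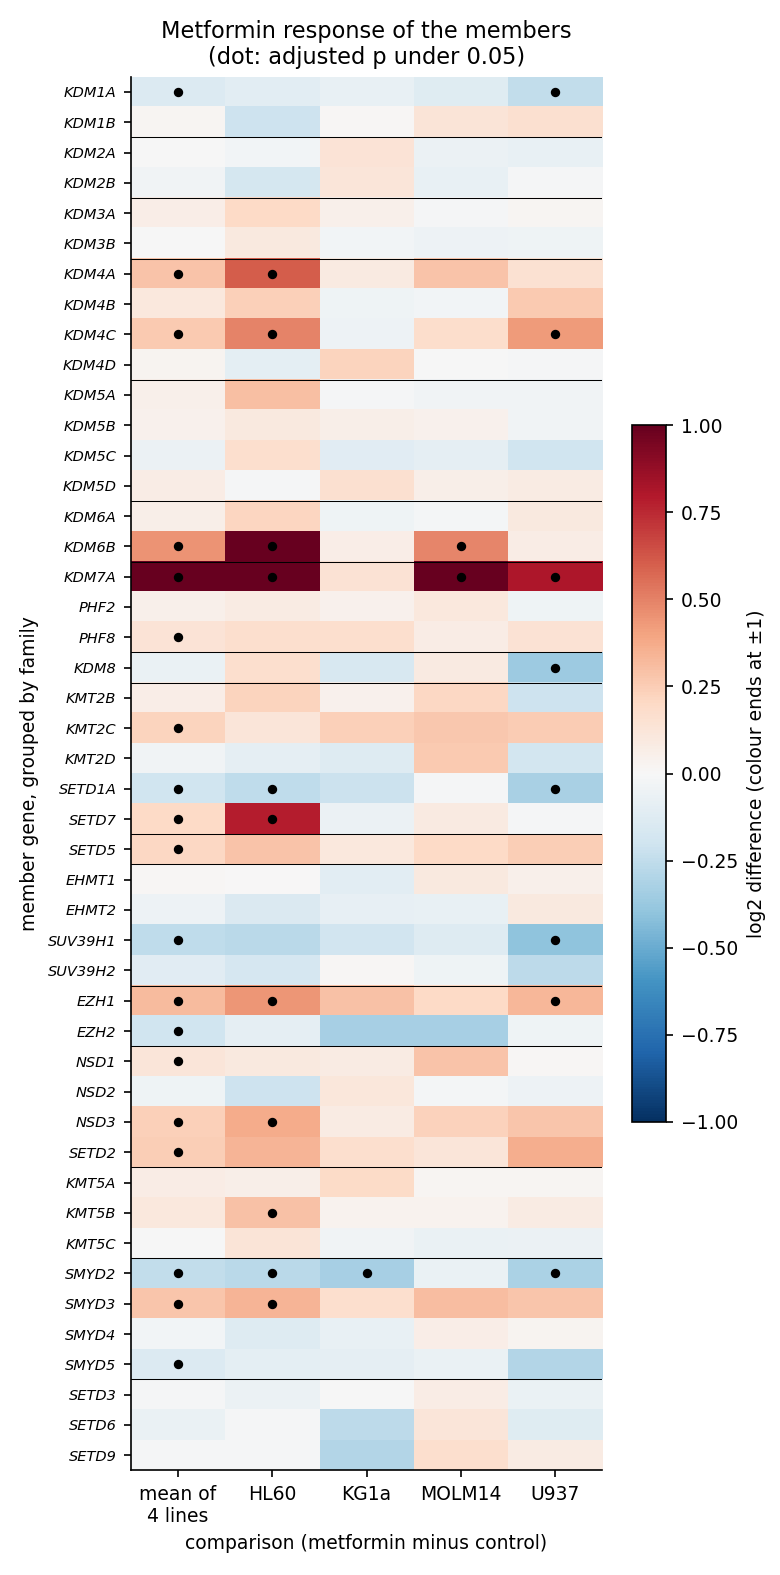
Metformin minus control for the 46 members (rows, grouped by family) in the mean of the 4 lines and in each line (columns), coloured by log2 difference with the colour ending at ±1 and a dot where the adjusted p is under 0.05. HL60 shows 11 dots, U937 8, MOLM14 2 and KG1a 1.

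The size of the response differed between the lines for 5 of 46 members by limma's moderated F test (10.9%, against 10% of all genes): KDM7A, KDM6B (adjusted p = 2.37e-05), SETD7 (0.00121), KDM4A (0.024) and KMT2D (0.03). SETD7 differed by 0.78 in HL60 and by between -0.06 and 0.09 elsewhere. In U937 it gave 6.43, 6.63 and 6.50 against 6.51, 6.42 and 6.59, in MOLM14 6.51, 6.74 and 6.96 against 6.70, 6.90 and 6.88, and in KG1a 3.91, 4.0 and 3.64 against 3.88, 3.80 and 3.70, where both means lay under 4.02. KMT2D, an enhancer H3K4 methylase, was higher in MOLM14, with 7.65, 7.85 and 7.74 against 7.99, 7.97 and 8.06, and lower in U937, with 8.0, 8.08 and 8.08 against 7.98, 7.76 and 7.87. Both pairs were without overlap, but neither line passed the test by itself (adjusted p = 0.0542 and 0.115). The KDM4A result was lost without HL60 control array C (adjusted p = 0.0773), metformin array A (0.0607) or metformin array B (0.0743), and that of KMT2D without any MOLM14 array except control B and metformin B (0.0616 to 0.1).

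Between the classes, 4 members responded less in the high than in the low oxidative phosphorylation lines (8.7%, against 4.64% of all genes) and limma called 0 the other way (against 2.05%), with 3 at an unadjusted p under 0.05. The differences between the class means were -1.01 ± 0.12 for KDM7A, -0.40 ± 0.12 for KDM4C (adjusted p = 0.0422), -0.37 ± 0.11 for SETD7 (adjusted p = 0.0391) and -0.34 ± 0.10 for KDM6B (adjusted p = 0.0472). Leaving out 1 of the 24 arrays moved the count to 1 or 2 in 19 cases. The call of KDM6B was lost in 24 of 33 alternative settings, that of KDM4C in 19 of 33 and that of SETD7 in 17 of 32. The class order did not hold line by line for KDM7A, KDM6B and SETD7, whose differences were larger in MOLM14, a high line, than in U937, a low one (for SETD7 0.09 against -0.01). In KG1a, the other high line, KDM7A and SETD7 lay under 4.02 in both groups, and KDM6B not far above it, at 4.33 without and 4.40 with metformin.

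Untreated, the lines differed for 46 of 46 tested members by the F test (100%, against 83.2% of all genes). Among the 45 whose levels are given, the highest and lowest line were at least 1 log2 unit apart in 19, with a median of 0.75 and a lowest value of 0.23 for KMT5A, the enzyme that places the first methyl group on H4K20. KG1a was the lowest line for 14 members and the highest for 13, MOLM14 the lowest for 16 and the highest for 8, HL60 the highest for 13 and U937 the highest for 11. The ranges and these tallies were not computed over all genes, so they describe the members and do not set them apart. The 3 widest ranges were those of KDM7A, SETD7 and KDM6B, and in all 3 KG1a was lowest. KDM7A was at 3.68 ± 0.17 (SD, n = 3) in KG1a, 6.12 ± 0.08 in U937, 6.21 ± 0.27 in HL60 and 6.91 ± 0.02 in MOLM14, and U937 and HL60 did not differ beyond their spread. SETD7 was at 3.85 ± 0.19 in KG1a, 6.52 ± 0.10 in U937, 6.74 ± 0.23 in MOLM14 and 6.75 ± 0.09 in HL60, the last pair within its spread. No fold is given against KG1a for KDM7A and SETD7, since its means lay under 4.02. KDM6B was at 4.33 ± 0.06 in KG1a, 5.82 ± 0.14 in HL60, 6.25 ± 0.15 in MOLM14 and 6.40 ± 0.20 in U937.

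Other members had wide ranges as well, with a single line apart from the rest for KDM5B and SETD3. KDM5B, an H3K4 demethylase, was low in MOLM14 at 6.98 ± 0.06 against 8.76 to 9.0 in the other lines, a range of 4.07-fold. SETD3, which methylates a histidine of actin, was high in KG1a at 9.93 ± 0.05 against 8.28 to 8.49. EZH2 was highest in HL60 at 9.33 ± 0.11 and lowest in KG1a at 7.53 ± 0.20. KDM1B, the second FAD enzyme, was highest in MOLM14 at 8.97 ± 0.05 and lowest in KG1a at 7.33 ± 0.04. KDM4D was at 5.61 ± 0.12 in KG1a and near the median of all values in U937 at 4.01 ± 0.12. NSD3 was lowest in HL60 at 7.66 ± 0.05 and highest in KG1a at 9.25 ± 0.10, and SETD6, which methylates a subunit of NF-kappaB, lowest in U937 at 4.85 ± 0.09 and highest in HL60 at 6.43 ± 0.21.

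**Figure D5:**
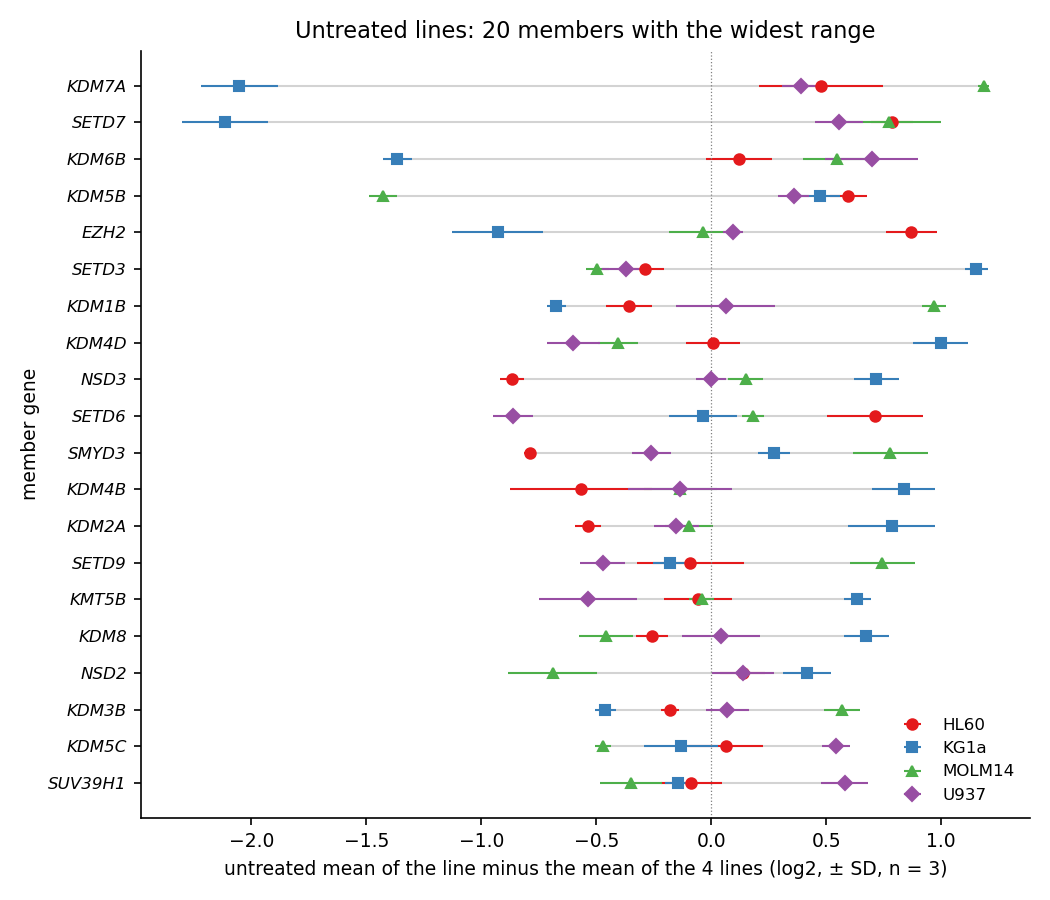
Untreated mean of each line minus the mean of the 4 lines (x axis, log2, bars ± SD, n = 3) for the 20 members with the widest range (y axis). KG1a lies far below the other lines for KDM7A, SETD7 and KDM6B, and MOLM14 for KDM5B.

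Between the untreated classes, 12 members were higher in the high lines (26.1%, against 28.4% of all genes) and 20 lower (43.5%, against 33.5%). With KDM5D left out, 11 were higher, and the order held in all 4 pairs of lines for 5 of these 11 and for 12 of the 20 lower. How often the order holds among all genes called for the class difference was not counted, so these 2 counts are a description. The largest of those 5 and 12 were SMYD3 (1.05 ± 0.09, SE, limma, adjusted p = 8.91e-11), NSD3 (0.87 ± 0.07, adjusted p = 8.07e-11) and KDM4B (0.70 ± 0.10, adjusted p = 1.09e-06) among the higher. Among the lower they were EZH2 (-0.96 ± 0.08, adjusted p = 1.09e-10), KDM5C (-0.60 ± 0.07, adjusted p = 2.87e-08) and KDM4A (-0.53 ± 0.06, adjusted p = 6.08e-08). SMYD3 was at 6.96 ± 0.07 in KG1a and 7.46 ± 0.16 in MOLM14 against 5.89 ± 0.02 in HL60 and 6.42 ± 0.08 in U937. With 2 lines per class, class and line cannot be told apart.

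Of the partners of these enzymes, COMPASS subunits, which serve the H3K4 methylases, fell more often than they rose. Of 11 tested genes 8 fell and 1 rose in the mean of the 4 lines, with a median of -0.16 against -0.01 over all genes, of which 16.1% fell and 16.3% rose. Of the 11, 5 were lower and 2 higher in HL60 (9.56% and 15.5% of all genes), 5 lower in U937 (9.74%) and 1 in MOLM14 (2.57%). CXXC1, which guides SETD1A to CpG islands, fell by 0.31 on the log2 scale (SE 0.05, limma, adjusted p = 3.51e-05) and PAGR1, of the KMT2C complex, by 0.25 (SE 0.04, adjusted p = 2.66e-05). PSIP1, a chromatin tether of KMT2A, rose by 0.25 ± 0.05 (adjusted p = 0.000203). It was called in HL60 alone (0.59, adjusted p = 4.36e-05), with 0.04 in KG1a, 0.11 in MOLM14 and 0.26 in U937. Of 7 Polycomb complex 2 partners 1 rose and 2 fell, with a median of -0.01: PHF1 by 0.12 ± 0.04 (adjusted p = 0.0287), and PHF19 by 0.26 (adjusted p = 0.00103) and RBBP7 by 0.13 (adjusted p = 0.0115) on the log2 scale. Of 7 genes of S-adenosylmethionine and 2-oxoglutarate supply 1 was called, D2HGDH, which turns D-2-hydroxyglutarate into 2-oxoglutarate and rose by 0.28 ± 0.07 (adjusted p = 0.00175). D2HGDH was called in HL60 (0.46, limma, adjusted p = 0.0123) and MOLM14 (0.56, adjusted p = 0.0107), but not in KG1a (0.04) or U937 (0.07). Next by p for the mean of the lines were MTRR (-0.07 ± 0.04, adjusted p = 0.188) and OGDH (-0.04 ± 0.04, adjusted p = 0.43), which did not pass.

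NSDHL, which matched the symbol rule by letters alone, fell. In HL60 it went from 7.45, 7.31 and 7.23 to 6.63, 6.50 and 6.47, in U937 from 7.93, 7.91 and 7.85 to 7.24 on each array, in MOLM14 from 6.95, 6.85 and 7.18 to 6.72, 6.70 and 6.67, and in KG1a from 6.92, 6.99 and 6.82 to 6.78, 6.78 and 6.94. The groups overlapped in KG1a alone. The mean difference was -0.46 ± 0.04 (limma, adjusted p = 1.63e-08).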

How the data were processed

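RNA (250 ng per sample, per the labels' protocols) was labelled and hybridized to Affymetrix arrays. The values the authors deposited are log2 normalized signals, as judged from their range of 1.88 to 14.2, since no source states the log base. The submitters' processing notes name Partek. How background was corrected and arrays were normalized is not given in the sources used here. No background signal was used, and whether differences of dim genes are understated was not tested.

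Of 53617 rows, 16098 have 1 gene in the platform annotation, 0 have several, and 37519 are unnamed here and were left out. These name 14884 genes, and each of the 16098 identifiers was found in the RefSeq table of GRCh38.p14 under the same symbol. NSD3 and SUV39H1 have 2 rows each. The windows before the start sites are RefSeq's, and 46 of the 48 enzyme genes had one.

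Groups follow the labels for line and treatment, and classes those for oxidative phosphorylation. A linear model of 8 group means (16 residual degrees of freedom) was fitted to 10641 genes with limma 3.58.1 in R 4.3.3. Its moderated p-values were adjusted over these genes by Benjamini-Hochberg. The calculations were tested on simulated data. Python 3.11.15 with matplotlib 3.10.9 drew the figures. Arrays of a group correlated at 0.983 to 0.993, and no pair was a duplicate (at most 5 identical rows). The number of arrays limits the precision.

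The members, partner lists and markers were chosen with earlier results of these data known. Named are KDM7A, PHF2 and PHF8, a set of members by role, the 10 members called for the mean of the lines with the largest difference each way and the same 3 per line, the 8 members with the smallest p for a difference between lines, the 10 widest untreated ranges, the 3 largest untreated class differences each way with 1 sign in 4 pairs, the 3 genes of smallest p in each partner list, and the 5 genes nearest to KDM7A. KMT5B in HL60, NSDHL and the other members of a family under description come on top. Alternatives included other filters, quantile normalization, arrays centred on their medians, the mean of a gene's rows, moderation with a trend, protein-coding genes only, a replicate block, and leaving out each array, each line or the 3 arrays that an earlier analysis found to stand apart (control C and metformin A of U937, control C of HL60).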

Additional observations from a re-analysis of the deposited data

Results flagged for a closer look

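The metformin response differed between the 4 lines, by limma's moderated F test adjusted over all genes, for KDM7A (adjusted p = 8.23e-09), KDM6B (2.37e-05), SETD7 (0.00121), KDM4A (0.024) and KMT2D (0.03). KDM7A was singled out with its response known, so its p-value supports nothing further. Next in order were KDM8 (0.0547), KDM4C (0.0893) and KMT2B (0.114), which did not pass. KDM7A, KDM6B, SETD7 and KDM4A differed most in HL60, at 2.52, 1.16, 0.78 and 0.60, and KMT2D in MOLM14, at 0.26. The causes of these differences were not tested.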

How the results depend on the processing

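Leaving out 1 array at a time gave 17 to 19 called members for the mean of the lines, 8 to 14 in HL60, 0 to 1 in KG1a, 2 to 4 in MOLM14 and 5 to 12 in U937. It gave 4 to 6 for the difference between lines, 1 to 4 for the class difference in response, 32 to 33 for the untreated class difference and 42 to 46 for the untreated lines. Where limma called 0 members in KG1a, 5 to 7 had an unadjusted p under 0.05. Quantile normalization gave 2 called members in KG1a and 13 in U937. For the class difference in response, 2 were called with centred arrays, 1 with no filter on dim genes and 2 where every group had to reach the filter, which gave 3 for the difference between lines. In MOLM14, 4 were called with an intensity trend and 4 with protein-coding genes only. Without the 3 arrays that stand apart, 6 were called in MOLM14, 4 in U937 and 1 for the class difference in response. Without HL60 the mean had 12 called members, 7 higher and 5 lower. With each line as 1 value, 2 were called for the mean (EZH1 and SMYD3). The other alternatives kept each total within 1.5 times its main value, but quantile normalization turned the HL60 split from 9 higher and 2 lower to 7 and 8. It also moved the median of all members from 0.00 to -0.01 in U937 and from -0.02 to 0.02 for the class difference in response. The members called for the mean or in a line kept the sign of their difference there in all these settings. The cause of the changes was not tested. Deviations of control and metformin arrays with the same letter correlated weakly or not at all (12 pairs, -0.06 to 0.15, 1 over 0.1). In HL60 these correlations were 0.06, 0.07 and 0.15. Arrays of a line with different letters gave -0.12 to 0.14. The labels do not say whether the letters pair arrays, and such weak correlations cannot decide it. With a replicate block 17 members were called for the mean of the lines.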

Other observations

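Arginine methylases, which modify histone arginines rather than lysines, fell in the mean of the 4 lines in 5 of 8 tested genes, and limma called 0 higher, with a median of -0.19. All genes tested gave 16.3% higher and 16.1% lower. PRMT3 went the other way, by 0.10 ± 0.04 in the mean (limma, adjusted p = 0.058), and was called higher in HL60 (0.25, adjusted p = 0.027). In HL60 2 of the 8 were lower. PRMT7 fell by 0.30 on the log2 scale (SE 0.04, limma, adjusted p = 6.49e-06), PRMT1, the main asymmetric enzyme, by 0.22 (adjusted p = 0.000502) and PRMT5, the main symmetric one, by 0.27 (adjusted p = 0.000567). Among 8 tested lysine methylases and Jumonji proteins with other symbols 3 rose and 1 fell. HSPBAP1, a Jumonji protein that binds a heat shock protein, rose by 0.48 ± 0.06 (adjusted p = 2.42e-06), JMJD1C, a relative of KDM3A, by 0.25 ± 0.04 (adjusted p = 7.29e-05) and RIOX2, a ribosomal oxygenase, by 0.16 ± 0.05 (adjusted p = 0.0163).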
